A study of Mus musculus with 5 samples.

Results

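The semaphorin, plexin, neuropilin, ephrin, Eph, Slit and Robo genes were described in RNA from mouse thyroid tumor cell lines. Members were all genes listed in at least 1 library whose symbol starts with Sema or Plxn, or is Epha, Ephb, Efna, Efnb, Slit or Robo followed by a number, together with Nrp1 and Nrp2. The rule used names only and no measured value, but the families were chosen with earlier results of these data known. It found 57 of the 17923 genes listed, namely 20 semaphorins, 12 plexins and neuropilins, 11 Eph receptors, 8 ephrins and 6 Slit and Robo genes. Another 4 genes of these families (Epha6, Epha10, Ephb1 and Robo4) were listed in none of the libraries. Plxna4os1, which met the rule by its symbol, is a long noncoding RNA antisense to Plxna4 and was listed with 1 count in a single library.

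The cell lines were grown from thyroid tumors of mice carrying BrafV600E, the activating BRAF mutation of papillary thyroid cancer, and the sequencing asked how gene expression differed once Ctnnb1, which encodes β-catenin, was deleted. All 5 libraries carried BrafV600E. BVE-Ctnnb1wt was represented by 2 libraries of 1 line named BVE at passage 20, wt 1 without and wt 2 with thyroid-stimulating hormone (TSH). BVE-Ctnnb1null was represented by 3 libraries with different line names, null 1 (BVECTN_4, passage 8, without TSH), null 2 (BVECTN_4A, passage 11) and null 3 (BVECTN_5, passage 7). The labels give no TSH state for null 2 and null 3, and the culture protocol gives other passage numbers, about 25 for the wt and 20 for the null lines. The sources used here do not name the Cre line or say whether the lines were clonal. Genotype, line and passage cannot be told apart in this design. The wt libraries came from 1 line with different TSH states, whereas the null libraries carry 3 different line names. No library has a repeat of the same line and condition in the labels. The p-values thus measure only the spread between these libraries, and the wt part of it holds no difference between lines. The paper names 3 biological replicates for its comparison, whereas 2 wt and 3 null libraries were available here. Libraries held between 29360002 and 30713079 estimated read counts, so that 3 counts, the upper limit for a gene with a count of 0, were between 0.0977 and 0.102 CPM (counts scaled to library size). That limit covers counting error only.

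Semaphorins are secreted or membrane-bound cues that bind plexin receptors, and the secreted class 3 semaphorins mostly do so through the co-receptors Nrp1 and Nrp2. Eph receptor tyrosine kinases bind ephrins on neighboring cells and signal in both directions, type A mainly with lipid-anchored ephrin-A ligands and type B with transmembrane ephrin-B ligands, while the secreted Slit proteins act on Robo receptors. These families were first known for steering axons, and in epithelia and tumors they are studied for their roles in cell sorting, adhesion, migration and vessel growth. Ephb2 and Ephb3 are known targets of β-catenin and TCF in intestinal epithelium.

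Ctnnb1 was checked first. Its FPKM (fragment counts scaled to transcript length and library size) was 59.3 in wt 1 and 73.8 in wt 2, and 125, 196 and 118 in null 1, null 2 and null 3. Ctnnb1 RNA was thus not lower in the libraries labelled null, against the label, although summed transcript values do not show the deleted exons. Its log2 fold change was 0.55 (SE, the standard error, 0.44, Benjamini-Hochberg adjusted p = 0.517, edgeR quasi-likelihood test). The groups are called wt and null by their labels throughout.

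Markers of the labelled cell type, thyroid epithelium, were uneven. Of 10 epithelial markers, all were listed in every library but null 2, where Epcam and Cdh1, which encode epithelial adhesion proteins, were at 0. Their summed FPKM was 1099 and 1775 in wt and 13395, 706 and 1422 in null 1, null 2 and null 3, and a keratin (Krt7, Krt8 or Krt18) was the most abundant in each. In null 3, Krt8 (201 FPKM) was below both wt libraries and Krt18 (367 FPKM) between them. The other epithelial markers were above both wt libraries there, such as Epcam at 59.6 FPKM against 5.04 and 4.61 FPKM. All 13 thyroid follicular markers were listed somewhere, with sums of 15.3 and 20.6 in wt and 35.2, 68.5 and 4.86 in null 1 to null 3, led by Nkx2-1 or Pax8. Thyroglobulin (Tg) was at or below 0.86 FPKM in all 5 libraries. Of 11 fibroblast markers, between 7 and 11 were listed per library, with sums of 1768, 3661, 86.8, 3012 and 2815 in the same order. Vim was the top fibroblast marker in each library, and Postn (102 FPKM), Dcn (84.7 FPKM) and Thy1 (88.5 FPKM) stood out in null 3. Col1a1, Col1a2 and Col3a1 were also highest in null 3, but both wt libraries held more of them than null 1 and null 2. Lum and Fap were at or below 0.27 FPKM in all 5 libraries. Pdgfrb was at 20.8 FPKM in null 2 and 23.4 FPKM in null 3. The 10 endothelial markers summed to at most 38.4 FPKM, nearly all of it Egfl7, with Pecam1, Cdh5, Tek and Tie1 at or below 0.04 FPKM. The 10 neural and Schwann cell markers summed to at most 29.6 FPKM, led by Tubb3 or Map2, with Sox10 at or below 0.01 FPKM. The 10 leukocyte markers summed to at most 60.2 FPKM, led by Cd68, and Ptprc, Cd3e and Adgre1 were listed in none of the libraries. The null libraries thus differed from each other in epithelial and fibroblast markers as well as in the guidance genes, and the part of these markers in the results was not tested. In bulk RNA, fewer cells of a type and less RNA per cell cannot be told apart.

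The guidance genes were mostly of low to moderate abundance. Their FPKM added up to 0.0528% and 0.0364% of the library total in wt 1 and wt 2, and to 0.129%, 0.103% and 0.0477% in null 1, null 2 and null 3. Of the 57 members, 19 were at 1 FPKM or more in every library, 17 were under 1 FPKM in every library and 21 were in between. The number at 1 FPKM or more was 24 and 23 in wt and 34, 31 and 31 in null 1, null 2 and null 3. A member's highest level was in null 1 for 28 genes, in null 2 for 17, in null 3 for 6, in wt 1 for 4 and in wt 2 for 2. The heat map of all members by library shows the genes with the highest mean FPKM, Sema3f, Plxnb2 and Epha2, as bright bands. Sema3f (10.0 FPKM) was below Nrp2 (19.9 FPKM) and other members in null 3, and Ephb4 (87.2 FPKM) exceeded Sema3f (61.1 FPKM) in null 1.

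**Figure D1:**
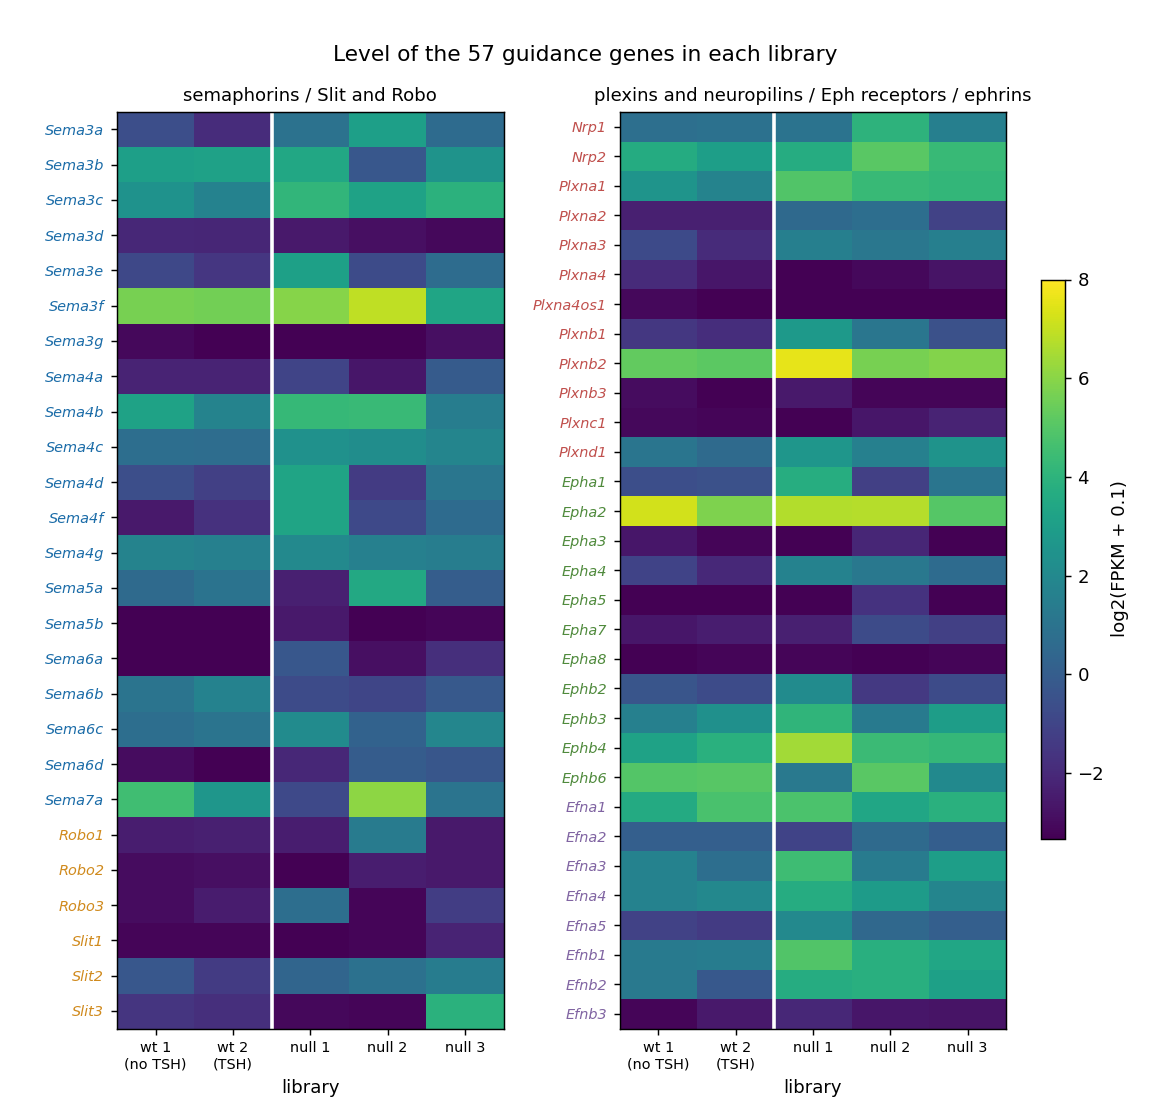
Heat map of the level of the 57 genes, as log2(FPKM + 0.1), in each library (columns; the white line separates wt from null), with gene names colored by family. Plxnb2 and Epha2 are bright throughout and Sema3f is dimmer in null 3, while genes such as Sema4f, Plxnb1 and Efnb1 are brighter in the null columns.

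Between the groups, more guidance genes were higher than lower in the libraries labelled null, but none passed edgeR's test across all genes. For 22 of the 57 members (38.6%), all null libraries exceeded both wt libraries in FPKM, against 28.8% of all listed genes, and for 3 members (Plxna4, Sema3d and Sema6b) all null libraries were below both, against 6.1% of all genes. On summed counts, edgeR's quasi-likelihood test called 0 members higher and 0 lower at a Benjamini-Hochberg adjusted p under 0.05, as it called 0.0% of all 13240 genes tested in either direction. Of the 48 members that passed the filter on low counts, 11 were higher and 1 was lower at an unadjusted p under 0.05. Among all genes tested, 12.4% were higher and 6.07% lower at that level. DESeq2 gave an adjusted p under 0.05 for 11 members higher (Efnb1, Efnb2, Epha4, Plxna1, Plxna2, Plxna3, Plxnb1, Sema3a, Sema4f, Sema6a and Sema6d) and 1 lower (Sema6b) of the 46 to which it gave one, beside 8.48% of all genes higher and 3.71% lower. The edgeR log2 fold change was above 0 for 38 and below 0 for 10 of the 48 members, with a median of 1.27, beside a median of 0.29 over all genes tested. The members' medians are the same with Sema6a, which was at 0 in wt, set to a lower bound from 3 counts over both wt libraries. With only 2 wt and 3 null libraries, the exact permutation test of a single gene cannot go below a two-sided p of 0.1.

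Scaling and single libraries moved these counts. Total FPKM was 740786 and 771332 in the wt and 584696, 581385 and 622125 in the null libraries. In counts after TMM normalization, over the genes that passed the count filter and not all listed genes, 16 of the 48 tested members were above both wt libraries in every null library (22.6% of all genes tested) and 6 were below (17.3% of all genes tested). Genes above in FPKM but overlapping after TMM were Epha7, Ephb4, Nrp1, Nrp2, Plxnb2 and Sema3e, while Efna2, Ephb6 and Sema4g joined those below. Scaling to the library total in place of TMM raised the median over all genes from 0.29 to 0.87 and that of the members from 1.27 to 1.82. The number of members higher at an unadjusted p under 0.05 was 1 without wt 2, 7 without wt 1 and 17 without null 2, beside 314, 388 and 1659 of all genes tested, and the members' median was 0.74 without null 1. The number of members below both wt libraries in FPKM was 8 without null 2 and 5 without wt 2, while over all 17923 genes it was 1725 and 2122 in place of 1094.

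**Figure D2:**
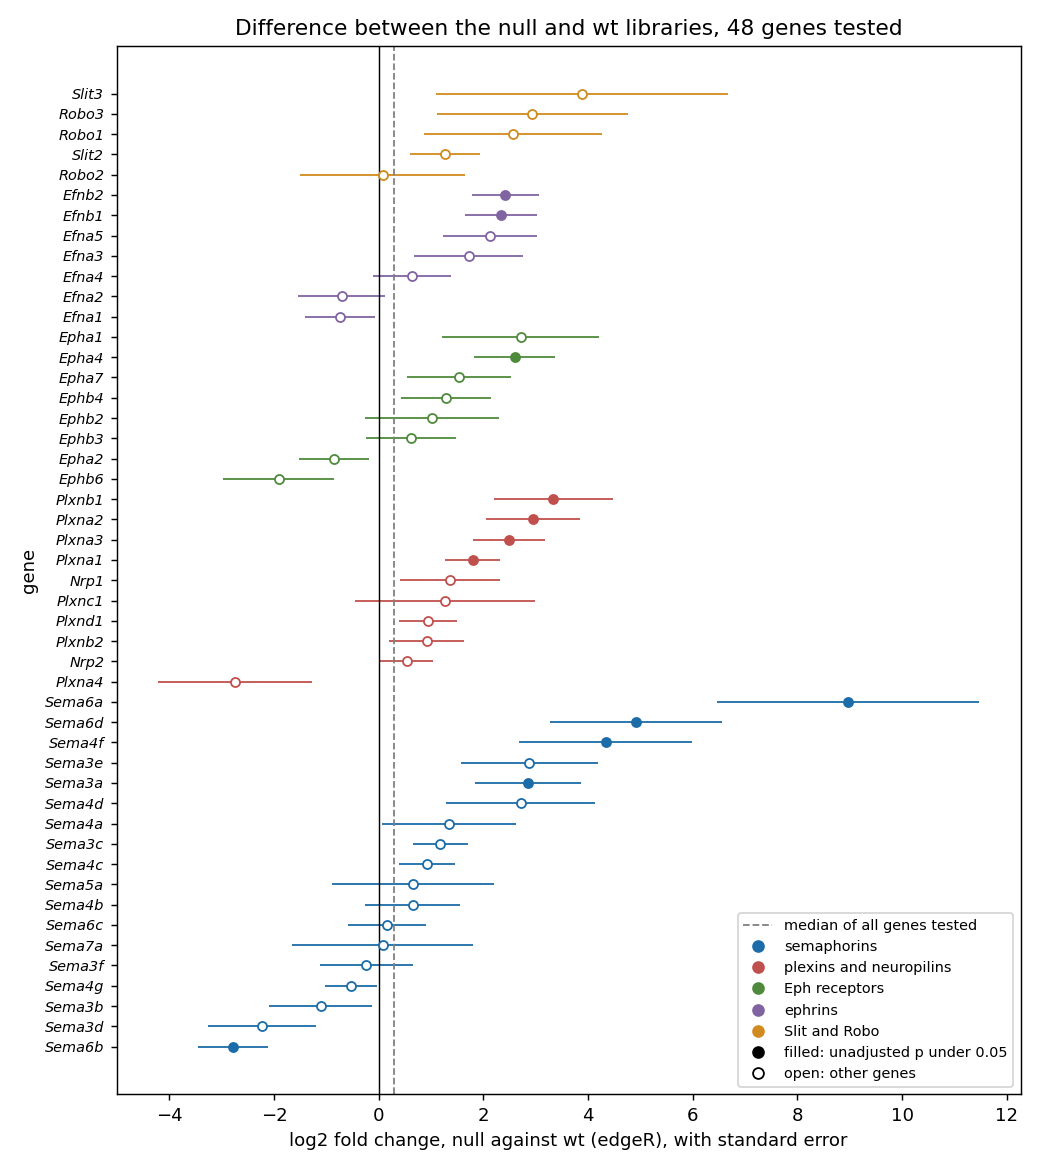
edgeR log2 fold change (null against wt) with its standard error for the 48 members tested, grouped by family, with filled points for an unadjusted p under 0.05 and a dashed line at the median of all genes tested (0.29). Most points lie to the right of the dashed line, the intervals are wide, and the value of Sema6a, which was at 0 in both wt libraries, depends on the prior count of the fit and is no bound.

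The sequence just upstream of the start was examined because β-catenin acts on genes through TCF and LEF factors at CTTTGAT or CTTTGAA. Windows of 250 bases before the start, taken from RefSeq (GRCm38.p6), were found for 49 members, 65 windows in all, and were searched on both strands. The TCF and LEF letters occurred in 3 of the 65 windows (4.62%), those of Epha2, Nrp2 and Sema3e, against 7.48% of 32851 windows of all genes. TGANTCA, the AP-1 letters, occurred in 3 windows (4.62%), those of Sema4c, Sema4d and Sema6b, against 6.75% of all windows. No member window held both motifs. The windows with the TCF and LEF letters follow, then those of Efnb1 and Efnb2, the ephrin-B ligands described below, and a Sema6b window, since Sema6b was the member lower in every null library with the lowest p. Each is written in the direction of transcription, and capitals mark the matched letters.
Epha2 chr4:141300971-141301220 (plus strand): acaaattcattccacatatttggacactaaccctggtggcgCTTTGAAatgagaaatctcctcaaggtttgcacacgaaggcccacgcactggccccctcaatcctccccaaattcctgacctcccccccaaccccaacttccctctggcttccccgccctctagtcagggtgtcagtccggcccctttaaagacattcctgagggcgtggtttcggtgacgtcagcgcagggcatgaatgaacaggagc
Nrp2 chr1:62703067-62703316 (plus strand): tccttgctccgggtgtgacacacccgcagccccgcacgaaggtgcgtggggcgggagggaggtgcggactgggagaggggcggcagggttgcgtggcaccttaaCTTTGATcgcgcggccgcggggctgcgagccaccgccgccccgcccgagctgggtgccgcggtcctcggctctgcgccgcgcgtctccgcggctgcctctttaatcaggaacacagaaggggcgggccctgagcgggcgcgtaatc
Sema3e chr5:14025026-14025275 (plus strand): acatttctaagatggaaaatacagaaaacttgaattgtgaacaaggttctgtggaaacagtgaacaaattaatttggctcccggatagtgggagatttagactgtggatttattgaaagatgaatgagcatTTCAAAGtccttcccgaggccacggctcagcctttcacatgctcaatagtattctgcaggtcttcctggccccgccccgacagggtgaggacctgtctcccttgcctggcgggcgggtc
Efnb1 chrX:99135811-99136060 (plus strand): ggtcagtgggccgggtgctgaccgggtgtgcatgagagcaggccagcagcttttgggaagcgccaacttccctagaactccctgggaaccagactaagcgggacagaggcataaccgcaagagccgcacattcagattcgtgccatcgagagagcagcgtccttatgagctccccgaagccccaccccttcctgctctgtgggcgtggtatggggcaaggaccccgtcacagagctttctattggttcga
Efnb2 chr8:8661243-8661492 (minus strand): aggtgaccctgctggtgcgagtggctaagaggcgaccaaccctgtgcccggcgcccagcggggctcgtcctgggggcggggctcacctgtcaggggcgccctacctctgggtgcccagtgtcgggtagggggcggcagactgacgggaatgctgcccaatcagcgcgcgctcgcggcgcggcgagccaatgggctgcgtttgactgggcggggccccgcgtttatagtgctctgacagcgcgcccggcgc
Sema6b chr17:56133853-56134102 (minus strand): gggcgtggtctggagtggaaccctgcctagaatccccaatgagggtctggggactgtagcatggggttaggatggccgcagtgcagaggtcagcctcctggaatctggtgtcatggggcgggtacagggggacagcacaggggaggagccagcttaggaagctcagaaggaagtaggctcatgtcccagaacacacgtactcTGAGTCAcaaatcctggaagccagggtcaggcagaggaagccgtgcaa
The match lay 209 bases before the start in Epha2, 146 in Nrp2, 119 in Sema3e, where it reads as the reverse strand, and 48 in Sema6b, of which a second start, not printed, held no match. Neither Efnb1 nor Efnb2 held either motif in the window. A match describes letters only and no binding was measured.

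Among the ligands, the secreted class 3 semaphorins held the most abundant member. Sema3f, which binds Nrp2 and is known to repel endothelial cells, was at 51.7 and 48.1 FPKM in wt and at 61.1, 120 and 10.0 FPKM in null 1, null 2 and null 3. It was the most abundant semaphorin in every library but null 3, with between 39.6% and 58.4% of the summed semaphorin FPKM in those libraries, and it spread over a wider range among the null libraries than the wt libraries covered. Its log2 fold change was -0.23 (SE 0.88), with groups that overlapped. It was -1.08 without null 2, 0.24 without null 3 and 0.34 when scaled to the library total. Sema3c, which binds both neuropilins, was at 5.36 and 3.14 FPKM in wt and at 17.4, 8.97 and 15.6 FPKM in null 1 to null 3. All 3 null libraries lay above both wt libraries, and in null 3 Sema3c was the leading semaphorin. The log2 fold change of Sema3c was 1.17 (SE 0.53, adjusted p = 0.288, edgeR). Sema3b, which like Sema3f lies in a region lost in human cancers and is studied as a tumor suppressor, was at 8.35 and 8.95 FPKM in wt and at 10.9, 0.74 and 5.59 FPKM in null 1 to null 3, so that null 2 stood lowest and the groups overlapped.

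Sema3a, the classic ligand of Nrp1, was at 0.55 and 0.17 FPKM in wt and at 1.84, 8.36 and 1.46 FPKM in null 1 to null 3. The groups did not overlap, null 2 was highest, and the mean level was 10.8-fold that of wt. On the edgeR scale the log2 fold change was 2.85 (SE 1.01, adjusted p = 0.229) and 1.60 without null 2. Sema3e, which binds Plxnd1 without a neuropilin, was at 0.44 and 0.25 FPKM in wt and at 8.67, 0.51 and 1.48 FPKM in null 1 to null 3, and null 2 was barely above wt 1. Sema3d was at or below 0.14 FPKM everywhere and lower in every null library, and Sema3g was close to 0. Sema5b was also too low to be tested, and Sema6c was between 1.09 and 4.36 FPKM with overlapping groups.

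Membrane-bound semaphorins were split. Sema4f was at 0.07 and 0.21 FPKM in wt and at 9.74, 0.46 and 1.44 FPKM in null 1 to null 3. The groups did not overlap and null 1 stood highest, and the log2 fold change was 4.34 (SE 1.65, adjusted p = 0.242, edgeR), with 2.11 without null 1 and 5.82 without wt 2. In wt 1 all Sema4f signal was assigned to a transcript of 2735 bases and in the other libraries to one of 4067 bases, so that the comparison of wt 1 with the others rests on different transcripts. Sema4d, the ligand of Plxnb1, was at 0.55 and 0.34 FPKM in wt and at 9.79, 0.29 and 2.05 FPKM in null 1 to null 3, with null 2 below wt. Sema4c, a ligand of Plxnb2, was at 1.59 and 1.55 FPKM in wt and at 5.20, 4.59 and 3.48 FPKM in null 1 to null 3. The null libraries were close to each other and all above wt in FPKM, and the log2 fold change was 0.92 (SE 0.54, adjusted p = 0.391, edgeR). Sema4b was at 9.18 and 3.25 FPKM in wt and at 19.1, 20.1 and 2.69 FPKM in null 1 to null 3, with null 3 below wt. Sema4g was between 2.71 and 3.87 FPKM in all 5 libraries, and Sema4a was at most 0.86 FPKM.

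Sema6b was the member with the lowest unadjusted p. It was at 1.95 and 3.18 FPKM in wt and at 0.50, 0.41 and 0.79 FPKM in null 1 to null 3. Every null library lay below both wt libraries, with means of 2.57 ± 0.870 (SD, n = 2) and 0.567 ± 0.199 (SD, n = 3) FPKM. The log2 fold change was -2.79 (SE 0.67, adjusted p = 0.186, edgeR), and the adjusted p was 0.000927 with DESeq2. Sema6a and Sema6d, transmembrane semaphorins that bind class A plexins, were higher in every null library, at low levels. Sema6a had 0 counts in wt and 157, 8 and 40 counts in null 1 to null 3. Sema6d was at 0.03 and 0 FPKM in wt and at 0.14, 0.88 and 0.72 FPKM in null 1 to null 3. Its transcripts differed between null 2 and null 3, with 68.2% of the FPKM on a transcript of 6470 bases in the former and 76.4% on one of 6527 bases in the latter.

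Sema7a and Sema5a were highest in null 2. Sema7a, a lipid-anchored semaphorin that acts through β1 integrins and Plxnc1, was at 23.2 and 6.17 FPKM in wt and at 0.47, 67.1 and 1.96 FPKM in null 1 to null 3. Both the highest and the lowest library were null, and the log2 fold change was 0.07 (SE 1.73). Sema5a, which carries thrombospondin repeats, was at 1.41 and 1.89 FPKM in wt and at 0.10, 11.3 and 0.90 FPKM in null 1 to null 3, so that null 2 alone was above wt. Without null 2 the log2 fold change turned to -4.21 for Sema7a and to -2.43 for Sema5a. Of the 20 semaphorins in all, 7 (35.0%) were above both wt libraries in every null library and 2 were below, beside 28.8% and 6.1% of all genes. Their median log2 fold change was 0.79 over 18 tested.

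The plexins, the receptors of these ligands, had a greater share of members with non-overlapping groups in FPKM than the other families, 8 of 12 above (66.7%, neuropilins included) and 1 below, beside 28.8% and 6.1% of all genes. After TMM 5 of the 10 tested were above (Plxna1, Plxna2, Plxna3, Plxnb1 and Plxnd1) and 1 was below, beside 22.6% and 17.3% of all genes tested. A median log2 fold change of 1.31 was found over the 10 tested, and 4 of them were higher at an unadjusted p under 0.05, beside a median of 0.29 and 12.4% higher over all genes tested. Plxna1, a co-receptor of class 3 semaphorins with the neuropilins, was at 5.76 and 3.28 FPKM in wt and at 30.7, 19.5 and 18.1 FPKM in null 1 to null 3. The lowest null library was above the highest wt library, and the mean was 5.03-fold higher (4.52 ± 1.75 FPKM, n = 2, and 22.7 ± 6.89 FPKM, n = 3, SD). The log2 fold change of Plxna1 was 1.79 (SE 0.52, adjusted p = 0.192, edgeR). Plxna3, a receptor for Sema3f with Nrp2, was at 0.48 and 0.16 FPKM in wt and at 2.88, 2.15 and 2.87 FPKM in null 1 to null 3. The null lines were close to each other and all above wt, with a log2 fold change of 2.49 (SE 0.69, adjusted p = 0.192, edgeR), 3.25 without wt 1 and 1.87 without wt 2. Plxna2, a receptor for class 6 semaphorins, was at 0.10 FPKM in both wt libraries and at 1.38, 1.59 and 0.37 FPKM in null 1 to null 3, with null 3 the lowest but still above wt. Plxna4 was lower in every null library, at 0.16 and 0.06 FPKM in wt and 0, 0.02 and 0.05 FPKM in null 1 to null 3. At this low level null 3 (18 counts) was close to wt 2 (24 counts), and the groups overlapped as a share of total FPKM. Reads of Plxna4 and of its antisense partner Plxna4os1 cannot be told apart, because the strand setting of the counting is not given in the sources used here.

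Plxnb2 was the most abundant plexin in every library, with 39.4 and 35.6 FPKM in wt and 194, 51.8 and 59.8 FPKM in null 1 to null 3. Null 1 was far above the rest, and the other null libraries were only slightly above wt. After TMM normalization the level was 308 and 320 CPM in wt and 1175, 278 and 323 in null 1 to null 3, so that null 2 was below both wt libraries on that scale. Without null 1 the log2 fold change of Plxnb2 was -0.10 in place of 0.92 (SE 0.72). Of its 2 transcripts, the one of 6497 bases made up 16.0% and 32.1% of Plxnb2 FPKM in wt and 44.0%, 34.1% and 26.8% in null 1 to null 3. Plxnb1, the receptor of Sema4d, was at 0.26 and 0.18 FPKM in wt and at 6.65, 2.11 and 0.60 FPKM in null 1 to null 3. All null libraries were above wt, null 3 by the least, and the log2 fold change was 3.34 (SE 1.13, adjusted p = 0.220, edgeR) and 1.99 without null 1. Plxnd1, the Sema3e receptor known from vessel patterning, was at 2.00 and 1.42 FPKM in wt and at 6.04, 2.93 and 5.49 FPKM in null 1 to null 3, with a log2 fold change of 0.94 (SE 0.55, adjusted p = 0.391, edgeR). Plxnb3 and the Sema7a receptor Plxnc1 were at or below 0.12 FPKM throughout.

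The neuropilins were highest in null 2. Nrp1 was at 1.68 and 1.75 FPKM in wt and at 1.88, 15.7 and 2.90 FPKM in null 1 to null 3. Null 1 exceeded the wt libraries by little, and the log2 fold change of 1.36 (SE 0.95) turned to -0.18 without null 2. Nrp2 was at 12.2 and 8.16 FPKM in wt and at 12.9, 33.8 and 19.9 FPKM in null 1 to null 3, with a log2 fold change of 0.53 (SE 0.51, adjusted p = 0.588, edgeR). That fold change of Nrp2 was 0.04 without null 2 and 0.26 without wt 2. On the FPKM scale Nrp2 exceeded Nrp1 in every library. A transcript of 6724 bases held the most Nrp2 FPKM in each library, between 60.7% and 72.5% of 6 transcripts. Of the semaphorins named above as neuropilin ligands, Sema3a and Sema3f were also highest in null 2, whereas Sema3c was lowest there among the null libraries.

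**Figure D3:**
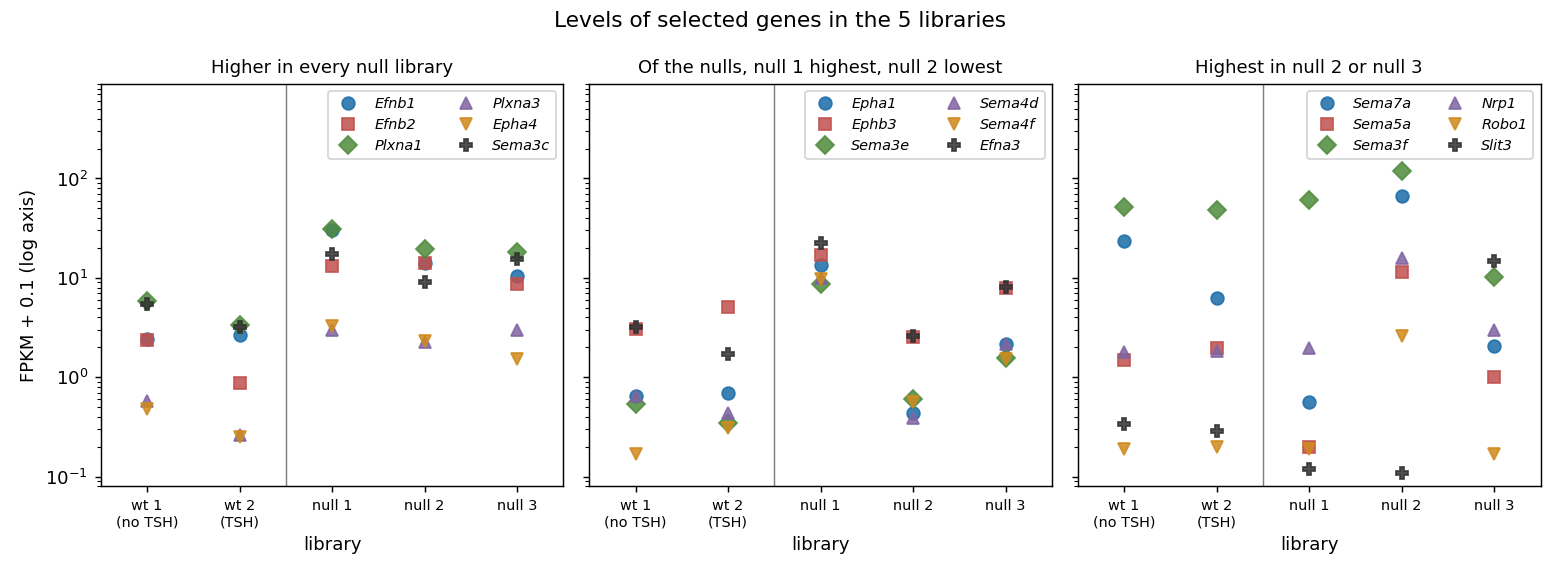
Levels of 18 members in each library as FPKM + 0.1 on a log axis, wt left and null right of the grey line, in 3 panels by pattern (genes chosen for their pattern). Efnb1, Efnb2, Plxna1, Plxna3, Epha4 and Sema3c were above wt in every null library, while the genes of the other panels peaked in null 1 or in null 2 or null 3.

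Among the ephrins, the B-type ligands Efnb1 and Efnb2 were several-fold higher in every null library. Efnb1, a transmembrane ligand of EphB receptors, was at 2.34 and 2.59 FPKM in wt and at 30.4, 14.1 and 10.4 FPKM in null 1 to null 3. All null libraries were above both wt libraries, with means of 2.47 ± 0.177 (SD, n = 2) and 18.3 ± 10.7 (SD, n = 3) FPKM, a ratio of 7.42. The log2 fold change of Efnb1 was 2.34 (SE 0.68, adjusted p = 0.194, edgeR) and its DESeq2 adjusted p was 0.0183, and without null 1 the fold change was 1.63. Efnb2, the ligand of Ephb4 known from the border of arteries and veins, was at 2.30 and 0.78 FPKM in wt and at 12.9, 14.2 and 8.50 FPKM in null 1 to null 3. The groups did not overlap, and the ratio of means was 7.70 with a log2 fold change of 2.42 (SE 0.64, adjusted p = 0.191, edgeR), 3.18 without wt 1 and 1.79 without wt 2. In sum, the ephrin-B genes were at 4.65 and 3.44 FPKM in wt and at 43.5, 28.3 and 19.0 FPKM in null 1 to null 3. Efnb3 was not tested because of its low counts.

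The ephrin-A ligands were mixed. Efna1, the main ligand of Epha2, was at 12.2 and 26.5 FPKM in wt and at 27.4, 10.2 and 14.5 FPKM in null 1 to null 3, so that the groups overlapped widely. The log2 fold change was -0.74 (SE 0.67), with -0.04 without wt 2, -1.34 without wt 1 and -1.36 without null 1. Efna3 was at 3.12 and 1.62 FPKM in wt and at 22.5, 2.5 and 7.99 FPKM in null 1 to null 3, with null 2 between the wt libraries. Efna5 was at 0.37 and 0.29 FPKM in wt and at 3.95, 1.32 and 0.96 FPKM in null 1 to null 3. It was the ephrin-A gene whose groups did not overlap, with a log2 fold change of 2.13 (SE 0.90, adjusted p = 0.271, edgeR; 1.14 without null 1), and a transcript of 5178 bases held 48.4% of its FPKM in null 1, 5.30% in null 2 and none elsewhere. Efna2 and Efna4 were at 0.39 to 1.42 and at 3.12 to 12.9 FPKM. Over the 8 ephrins, 3 (37.5%) were above wt in every null library, beside 28.8% of all genes, and the median log2 fold change of 1.72 over 7 tested became 0.49 without null 1.

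Epha2 dominated the Eph receptors. It was at 149 and 56.0 FPKM in wt and at 105, 107 and 31.9 FPKM in null 1 to null 3, the highest FPKM of all members in wt 1 and wt 2. Epha2 is an abundant receptor of epithelial and tumor cells, and it made up between 45.2% and 76.7% of the summed Eph FPKM per library. The groups overlapped, with a log2 fold change of -0.86 (SE 0.67, adjusted p = 0.505, edgeR), -0.22 without wt 1 and -1.44 without wt 2. Epha4, which binds ephrins of both types, was at 0.38 and 0.15 FPKM in wt and at 3.15, 2.22 and 1.44 FPKM in null 1 to null 3. Every null library was above wt, with an 8.57-fold ratio of means and a log2 fold change of 2.60 (SE 0.77, adjusted p = 0.194, edgeR). That of Epha4 was 3.21 without wt 1, 2.03 without wt 2 and 2.18 without null 1. Epha1 was at 0.55 and 0.59 FPKM in wt and at 13.4, 0.34 and 2.04 FPKM in null 1 to null 3, highest in null 1 and below wt in null 2. Epha7 was at most 0.50 FPKM. Epha3, Epha5 and Epha8 did not pass the filter on low counts and were at most 0.22 FPKM.

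Ephb4, the receptor of Efnb2, was at 9.13 and 14.7 FPKM in wt and at 87.2, 21.0 and 18.4 FPKM in null 1 to null 3. All null libraries were above wt in FPKM, null 1 by far the most, but after TMM normalization null 2 (75.4 CPM) and null 3 (66.6) were below wt 2 (88.1). Its log2 fold change was 1.28 (SE 0.86, adjusted p = 0.442, edgeR) and 0.03 without null 1. Ephb6, a receptor without kinase activity, was at 31.5 and 33.4 FPKM in wt and at 2.30, 33.9 and 4.06 FPKM in null 1 to null 3. Null 1 and null 3 were far below wt while null 2 was at the wt level, and the log2 fold change was -1.91 (SE 1.06, adjusted p = 0.367, edgeR) and -4.02 without null 2. The intestinal β-catenin targets were highest in null 1. Ephb3 was at 2.99 and 5.02 FPKM in wt and at 16.8, 2.46 and 7.76 FPKM in null 1 to null 3, and its log2 fold change turned to -0.36 without null 1. Ephb2 was at 0.68 and 0.50 FPKM in wt and at 4.25, 0.27 and 0.50 FPKM in null 1 to null 3. Over the 11 Eph receptors, 3 (27.3%) were above wt in every null library and 0 were below, beside 28.8% and 6.1% of all genes. After TMM, Epha4 alone was above and Ephb6 below of the 8 tested, beside 22.6% and 17.3% of all genes tested. For the Eph receptors the median log2 fold change of 1.15 over 8 tested turned to -0.17 without null 1.

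Slit and Robo genes were scarce in wt. Slit3 and Robo1 stood out in single null libraries, while Slit2 was above 1 FPKM in all 3. Slit3 was at 0.24 and 0.19 FPKM in wt and at 0.02, 0.01 and 14.8 FPKM in null 1 to null 3. The estimated counts were 38 and 30 in wt and 3, 1 and 2221 in null 1 to null 3, so that nearly all Slit3 counts lay in null 3 and the log2 fold change turned from 3.88 (SE 2.79) to -4.52 without it. Null 3 was also the library with the highest Col1a1 (570 FPKM) and with Postn, Dcn and Thy1, and their part in the Slit3 level was not tested. Slit2, a ligand of Robo1, was at 0.75 and 0.29 FPKM in wt and at 1.19, 1.75 and 2.57 FPKM in null 1 to null 3. The Slit2 groups did not overlap, and the log2 fold change was 1.26 (SE 0.67, adjusted p = 0.349, edgeR). That of Slit2 was 1.91 without wt 1, 0.70 without wt 2 and 0.93 without null 3. Robo1, a receptor of Slit2, was at 0.09 and 0.10 FPKM in wt and at 0.09, 2.48 and 0.07 FPKM in null 1 to null 3, present almost only in null 2. Robo3, which does not bind Slit proteins in mammals, was at 0.03 and 0.08 FPKM in wt and at 1.60, 0.01 and 0.32 FPKM in null 1 to null 3. Robo2 was at or below 0.09 FPKM, and Slit1 was too low to be tested. The library with the most Slit3 was thus not the library with the most Robo1. Of the 6 genes, 1 (16.7%), Slit2, was above wt in every null library, beside 28.8% of all genes. The fitted median log2 fold change of 2.57 over 5 tested is the value of Robo1, which null 2 carried, while the family's median difference from wt on the log2(FPKM + 0.1) scale was -0.04, 0.49 and 1.46 in null 1 to null 3.

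The null lines differed from each other by family. Relative to the wt mean on the log2(FPKM + 0.1) scale, the median difference of the 48 tested members was 1.72 in null 1, 0.81 in null 2 and 1.04 in null 3, against 0.55, 0.62 and 0.72 over all genes tested. Eph receptors had medians of 2.38, 0.15 and 0.82, and ephrins 3.17, 1.06 and 1.31, so that null 1 stood apart in both. Plexins and neuropilins had 2.08, 1.94 and 1.07, and semaphorins 1.22, 0.80 and 1.03. Slit and Robo genes had -0.04, 0.49 and 1.46, in null 1 and null 2 below and in null 3 above the median of all genes. Of the 39 members with at least 1 FPKM in some null library, 15 (38.5%) ran from null 1 through null 3 down to null 2, an order that 17.5% of 12069 such genes took. These 15 were Efna1, Efna3, Epha1, Ephb2, Ephb3, Plxna3, Plxnb2, Plxnd1, Robo3, Sema3b, Sema3c, Sema3e, Sema4d, Sema4f and Sema6c. Of the 10 epithelial markers, 9 took the same order, among them Cdh1 at 136, 0 and 20.9 FPKM in null 1, null 2 and null 3. The reverse, with null 2 highest and null 1 lowest, held for 6 members (15.4%; Efna2, Ephb6, Nrp1, Nrp2, Sema5a and Sema7a), against 21.3% of genes. A further 9 members (23.1%) ran from null 1 through null 2 down to null 3, against 15.3% of genes. Another 7 (17.9%) ran from null 2 through null 1 down to null 3, against 12.5% of genes. Only Slit2 ran from null 3 through null 2 down to null 1 (2.56%, against 21.3% of genes). Only Slit3 ran from null 3 through null 1 down to null 2 (2.56%, against 11.1% of genes). Of the 11 fibroblast markers, 10 were highest in null 3 among the null libraries, and Vim was highest in null 2. Each line was 1 library, so these orders have no replicate check, and their relation to the epithelial and fibroblast markers was not tested.

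The labels of the 2 wt libraries differ in TSH, with 1 library on each side and no replicate check. Counts of wt 2 (with TSH) and wt 1 (without) were scaled to library totals, and 95% exact intervals cover counting error only. Of 43 members with at least 20 counts over both, 9 were at least 2-fold lower and 2 at least 2-fold higher in the library with TSH, and 26 had an interval that left out 1. Among 12126 genes with as many counts, 11.8% were at least 2-fold lower, 5.01% at least 2-fold higher and 71.5% had an interval that left out 1. Sema7a was 3.75-fold lower with TSH (interval 3.43 to 4.10), Efnb2 2.96-fold lower (2.36 to 3.73), Sema4b 2.82-fold lower (2.51 to 3.17) and Epha2 2.66-fold lower (2.58 to 2.73). The other members at least 2-fold lower were Sema3a, Plxna3, Slit2, Epha4 and Plxna4. Efna1, the Epha2 ligand, was 2.17-fold higher (1.96 to 2.41), in the opposite direction to its receptor, and Sema4f had 6 counts without and 27 with TSH (4.46-fold, 1.80 to 13.2). Efnb1 (ratio 1.11, interval 0.926 to 1.33) and Nrp1 (1.04, 0.889 to 1.22) had intervals that included 1.

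**Figure D4:**
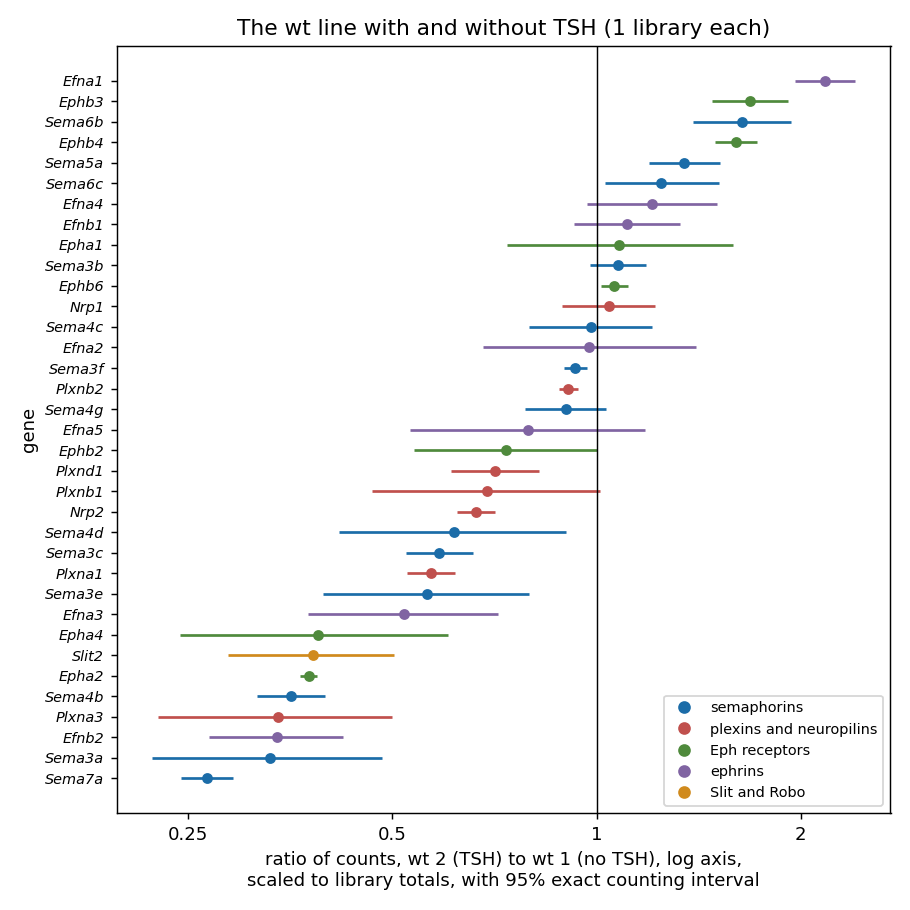
Ratio of counts in wt 2 (with TSH) to wt 1 (without TSH), scaled to library totals, on a log axis with 95% exact counting intervals, for members with at least 100 counts over both libraries. Efna1 lies highest at 2.17, and Sema7a, Sema3a, Efnb2 and Plxna3 lie lowest, near 0.3.

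Genes that act downstream of or beside these receptors were described from 2 lists. Of 58 genes for cytoplasmic effectors (such as CRMP, MICAL and adaptor proteins), 57 were listed and 54 tested. None had an adjusted p under 0.05 with edgeR, 14 were higher and 1 lower at an unadjusted p under 0.05, and the median log2 fold change was 0.83, beside 12.4% higher, 6.07% lower and a median of 0.29 over all genes tested. Pak2, a kinase under Rac and Cdc42, was at 3.89 and 3.15 FPKM in wt and at 22.4, 22.3 and 17.0 FPKM in null 1 to null 3. The groups did not overlap and the null libraries were close to each other, with a log2 fold change of 1.98 (SE 0.45, adjusted p = 0.180, edgeR). Sos1, an exchange factor of Ras and Rac, was at 0.18 and 0.16 FPKM in wt and at 2.41, 1.68 and 4.13 FPKM in null 1 to null 3. Rock1, a kinase that acts on the actin cytoskeleton, was at 0.03 and 0.04 FPKM in wt and at 0.38, 1.20 and 0.59 FPKM in null 1 to null 3, higher in each null library at a low level. Rnd2 was lower in each null library, with 28.9 and 35.5 FPKM in wt and 17.6, 13.8 and 23.6 FPKM in null 1 to null 3 (log2 fold change -1.41, SE 0.50, adjusted p = 0.226, edgeR).

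Of 30 genes for ligands, co-receptors and proteases shared with other pathways, 29 were listed and 22 tested. With edgeR 0 had an adjusted p under 0.05, 7 were higher and 0 lower at an unadjusted p under 0.05, and the median log2 fold change was 1.30, beside the same 12.4%, 6.07% and 0.29 over all genes tested. Adam10, the protease that sheds ephrins, was at 3.21 and 3.18 FPKM in wt and at 12.4, 19.2 and 14.3 FPKM in null 1 to null 3. Met, a receptor kinase that associates with B plexins, was at 1.49 and 1.15 FPKM in wt and at 5.39, 7.80 and 6.44 FPKM in null 1 to null 3. Both had non-overlapping groups, with log2 fold changes of 1.67 (SE 0.45, adjusted p = 0.191) for Adam10 and 1.73 (SE 0.47, adjusted p = 0.191) for Met in edgeR. L1cam, a partner of Nrp1, was listed at 0 in wt and at 4.90, 0.12 and 0.23 FPKM in null 1 to null 3. Kdr, the VEGF receptor that pairs with neuropilins, was at or below 0.62 FPKM in all 5 libraries. The integrin subunit gene Itgb1, a receptor partner of Sema7a, was at 61.8 and 41.3 FPKM in wt and at 88.8, 234 and 286 FPKM in null 1 to null 3, so that Sema7a and Itgb1 were both high in null 2 while null 3 was high in Itgb1 alone.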

How the data were processed

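RNA-seq libraries were made with a TruSeq kit and sequenced on a HiSeq 4000. The aligner, counting program, strand setting and genome build are not given in the sources used here. Per RefSeq transcript, the authors deposited an estimated count and an FPKM value, scaled by them to transcript length and library total, listing transcripts from 0.01 FPKM. Both were summed per NCBI gene, and counts were rounded. Symbols came from the RefSeq table of GRCm38.p6 (17866 of 17923 genes matched).

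Null and wt libraries were compared with edgeR 4.0.16 in R 4.3.3 (TMM, filterByExpr, glmQLFit, glmQLFTest) over 13240 genes, with Benjamini-Hochberg adjustment over all of them and a threshold of 0.05. Single genes were also read against the exact permutation test over 10 regroupings. The alternatives were DESeq2 1.42.0, scaling to library totals, other count filters, limma 3.58.1 on log2(FPKM + 0.1, 0.01 or 1), leaving out each library, and the replicate number as a block. The fitting code was also run on simulated counts that varied less than these libraries. That run does not show how well the fits work here. Sums and intervals were computed in Python 3.11.15 with scipy 1.17.1.

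Values per library are given for the 4 most abundant members of each family, members with an unadjusted p under 0.05 and a mean of at least 1 FPKM in the higher group, members of at least 1 FPKM whose groups did not overlap, and members of at least 5 FPKM with a log2 range of at least 3 over the null libraries. Sema6a, Sema6d and other low members are named to account for counts. The effector, shared partner and marker lists, and the members, were chosen with earlier results of these data known. The experiments in mice and the cytotoxicity assays were not analysed here.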

Additional observations from a re-analysis of the deposited data

How the results depend on the processing

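Of 35 members described by library, 31 had a log2 fold change under every alternative, and 25 of these kept its sign. Another 4 (Robo1, Robo3, Slit3 and Sema4f) lacked a value under limma or the filter of 10 counts in every library, and 2 of them, Robo3 and Sema4f, kept the sign where fitted. In all, 8 of the 35 changed sign under some alternative. Sema7a (0.07) became -0.0008 with DESeq2, -1.49, -1.58 and -0.98 with limma at 0.1, 0.01 and 1 added, and -0.64 without wt 2. Sema3f (-0.23) became 0.34 scaled to the library total. Sema5a (0.66) became -0.40 and -0.65 with limma at 0.1 and 0.01 added. With each library left out, Sema7a ranged from -4.21 (without null 2) to 1.08, Sema5a from -2.43 (without null 2) to 1.22, Sema3f from -1.08 to 0.24 (without null 3), Ephb3 from -0.36 and Plxnb2 from -0.10 (both without null 1) to 1.06 and 1.16, Robo1 from -0.87 and Nrp1 from -0.18 (both without null 2) to 3.10 and 1.77, and Slit3 from -4.52 (without null 3) to 4.4. DESeq2 called 1113 genes higher and 487 lower at an adjusted p under 0.05, with 11 and 1 members. edgeR's adjusted calls over all genes were 4 lower without a filter and 1 lower with 10 counts in every library. With limma they were 1 higher and 5, 3 and 7 lower at 0.1, 0.01 and 1 added, and 332, 315 and 337 genes were lower at an unadjusted p under 0.05. Scaled to the library total, 2950 genes were higher and 276 lower at that level, with 17 members higher, and median log2 fold changes were 1.40 for semaphorins, 1.93 for plexins and neuropilins and 1.82 for all members. Under limma 1 Slit and Robo gene, Slit2, passed the filter, and its value of 1.69 at 0.1 and 0.89 at 1 added stands in place of the family median. The median of plexins and neuropilins was 1.89 with limma at 0.01. After TMM 6 members and 2287 of 13240 genes were below both wt libraries, and as a share of total FPKM 24 members were above and 2 below, beside 6651 and 665 of 17923 genes.

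Leaving out each library in turn gave 314 to 2046 genes higher and 289 to 1465 lower at an unadjusted p under 0.05, with 1 to 17 members higher and 0 to 3 lower, and no adjusted call. Between 24 and 30 members were above and 3 to 8 below both wt libraries, beside 5997 to 7177 and 1725 to 2122 of all 17923 genes. Medians ranged from 0.66 to 1.13 for semaphorins, 1.10 to 1.71 for plexins and neuropilins, -0.17 to 1.39 for Eph receptors, 0.49 to 2.10 for ephrins, 1.42 to 2.38 for Slit and Robo and 0.74 to 1.28 for all members. A left-out library that leaves 1 wt library assumes that it varies like the null libraries.

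Replicate numbers did not pair the samples: deviations of same-numbered libraries correlated at -0.121 and -0.115. The labels give wt 1 and null 1 the same TSH state and give none for null 2. With the replicate block, edgeR gave 947 genes higher and 550 lower at an unadjusted p under 0.05, with 9 members higher and 2 lower and no adjusted call. The Slit and Robo median was 1.07, and Sema7a (-1.60), Sema3f (0.22), Sema5a (-1.10) and Slit3 (-4.56) changed sign under the block. No wt library shares the replicate number of null 3, so null 3 adds nothing to the fold changes under the block. These sign changes are therefore not an effect of pairing alone.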

Other observations

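Ligand and receptor genes of a pair were set side by side on the FPKM scale, with no test. Efnb2 and its receptor Ephb4 were both above wt in every null library, Efnb2 at 12.9, 14.2 and 8.50 FPKM and Ephb4 at 87.2, 21.0 and 18.4 FPKM in null 1 to null 3. After TMM Efnb2 was still above wt in every null library, while Ephb4 was below wt 2 in null 2 and null 3, and its log2 fold change was 0.03 without null 1. Sema4d and its receptor Plxnb1 were both highest in null 1, at 9.79 and 6.65 FPKM, while in null 2 Plxnb1 (2.11 FPKM) was above wt and Sema4d (0.29 FPKM) was not. Sema3e and its receptor Plxnd1 were likewise highest in null 1, at 8.67 and 6.04 FPKM. Efna1 and Epha2 took different orders, Efna1 being highest in null 1 (27.4 FPKM) and Epha2 in wt 1 (149 FPKM). Slit3 was highest in null 3 (14.8 FPKM), where Robo1 was at 0.07 FPKM. Flt4, a VEGF receptor that pairs with Nrp2, was at 0.06 and 0 FPKM in wt and at 18.4, 0.03 and 1.13 FPKM in null 1 to null 3, highest in null 1 whereas Nrp2 was highest in null 2. Vegfc, a ligand of Flt4, was at 0.05 FPKM in both wt libraries and at 0.87, 0.69 and 18.4 FPKM in null 1 to null 3, highest in null 3.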
